A study of Homo sapiens with 4 samples.

Results

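The 10 genes described here mark the ends of the epithelial-mesenchymal transition (EMT) were followed in 2 ovarian cancer cell lines with and without TET1 overexpression: VIM, FN1, CDH1, CDH2, EPCAM, SNAI1, SNAI2, ZEB1, ZEB2 and TWIST1. They were chosen by symbol as the EMT transcription factors, the cadherins and the products most often measured with them, and all 10 were found among the 26506 gene symbols of each expression table. The lines were HeyC2 and SKOV3, both established from human ovarian carcinoma. In each line, cells carrying the pCMV6/TET1 plasmid, which encodes full-length TET1, were set against cells carrying the empty plasmid, which the labels call wild type. TET1 is a methylcytosine dioxygenase that starts the removal of methyl groups from cytosine in CpG dinucleotides. All 4 cell populations, controls included, were made with lipofectamine and kept in Geneticin, and whether a population came from 1 clone or from many is not given in the labels. RNA sequencing gave 1 library per group, so no difference within a line has a replicate check, and none was tested.

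In EMT, cells that hold together in sheets through E-cadherin (CDH1) loosen their contacts, take up N-cadherin (CDH2), and build vimentin filaments (VIM) and a fibronectin matrix (FN1). The switch is driven by a small set of repressors: the zinc finger proteins SNAIL (SNAI1), SLUG (SNAI2), ZEB1 and ZEB2, which bind E-box motifs in the CDH1 promoter, and the basic helix-loop-helix factor TWIST1. Many carcinoma cell lines stop between the ends and carry genes of both, a state often called hybrid or partial EMT.

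The values are FPKM, fragments divided by transcript length and by the depth of the library, so levels can be compared between genes. In the deposited tables GAPDH had the same FPKM in TET1 and control, since the whole TET1 column had been multiplied by 3.23 in HeyC2 and by 1.35 in SKOV3. All FPKM below are given before this scaling. A relative log2 change is log2 of TET1 over control, with 1 FPKM added to both, minus the median of the same value over all genes with a mean of at least 1 FPKM. That median was 0.06 over 11896 genes in HeyC2 and 0.19 over 13016 genes in SKOV3. A gene is called higher or lower when it is at least 1.5-fold from the median. The spacing of the lowest values gave an estimated depth of 6620000 to 7580000 fragments per library, and 95% Poisson intervals on these estimated fragments cover counting error only.

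TET1 itself was listed at 0.20 FPKM in the HeyC2 control and 0.52 in HeyC2 TET1, an estimated 14 and 33 fragments, and at 0.43 and 1.80 in SKOV3 without and with the TET1 plasmid, 29 and 112 fragments. It was thus higher in both libraries labelled TET1, at a low level. Among 10 markers of ovarian carcinoma and simple epithelium, PAX8, KRT8 and KRT18 were at 74.59 FPKM or more in every library, while WT1, MUC16 and EMX2 were at or near 0. Other epithelial markers differed strongly within a line. In SKOV3, KRT7 was at 1537 FPKM in control and 21.96 in TET1, KRT19 at 255 and 0.46, and MSLN at 10.29 and 0.08. In HeyC2, KRT7 was at 290 FPKM in control and 1125 in TET1. Of 8 leukocyte and 6 endothelial markers, CD68 alone reached 1 FPKM. Of 6 fibroblast markers, LUM at 4.32 and COL1A2 at 2.12 FPKM reached 1 FPKM, both in SKOV3 TET1 alone, where the summed level of the list was 7.75 FPKM against 0.03 to 0.79 in the other libraries. The part of these marker levels in the results below was not tested.

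Promoter windows of 250 bases before the RefSeq start sites (GRCh38.p14) were found for 5 of the 10 genes: VIM, FN1, CDH2, ZEB1 and ZEB2, 12 windows in all. No window was used for CDH1, SNAI1, SNAI2, TWIST1 and EPCAM. The first 3 sequences are shown because these are the genes that differed most in HeyC2, with each CpG, the dinucleotide on which TET1 acts, in capitals. They lie at chr10:17227991-17228240 on the plus strand for VIM, chr2:215436069-215436318 on the minus strand for FN1 and chr18:28177131-28177380 on the minus strand for CDH2, and are written 5′ to 3′ on the gene's strand.
VIM promoter: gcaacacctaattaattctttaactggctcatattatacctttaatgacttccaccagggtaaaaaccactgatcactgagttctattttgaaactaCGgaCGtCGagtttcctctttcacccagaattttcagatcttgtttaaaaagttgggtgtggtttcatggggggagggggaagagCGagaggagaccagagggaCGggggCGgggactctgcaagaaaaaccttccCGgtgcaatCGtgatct
FN1 promoter: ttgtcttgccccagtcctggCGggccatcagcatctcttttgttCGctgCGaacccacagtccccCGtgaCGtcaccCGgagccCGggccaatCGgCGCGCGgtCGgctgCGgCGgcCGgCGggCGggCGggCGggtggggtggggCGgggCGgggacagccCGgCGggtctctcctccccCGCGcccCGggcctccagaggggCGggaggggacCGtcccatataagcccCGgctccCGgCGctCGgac
CDH2 promoter: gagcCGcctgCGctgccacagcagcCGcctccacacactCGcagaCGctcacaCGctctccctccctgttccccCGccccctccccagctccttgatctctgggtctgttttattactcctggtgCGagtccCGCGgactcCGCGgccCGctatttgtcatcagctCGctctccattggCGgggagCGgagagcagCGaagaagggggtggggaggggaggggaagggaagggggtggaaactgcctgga
The FN1 window held 32 CpG, the CDH2 window shown 17 and the VIM window 8, beside a median of 11 over 35116 windows of the same length. A second CDH2 window, chr18:28036642-28036891 on the minus strand, held 4 CpG. The VIM and FN1 windows stood on opposite sides of the median of 11, and a relation of CpG number to the changes was not tested. DNA methylation was not measured in the files used here. The E-box searched was CACCTG, read as CAGGTG on the other strand, which SNAIL and ZEB factors can bind. It was in 2 of the 12 windows, both of ZEB1, to which 7 of the 12 belong, and in 17.5% of all windows. The first ZEB1 window, chr10:31318167-31318416 on the plus strand, is shown with its E-box in capitals.
ZEB1 promoter: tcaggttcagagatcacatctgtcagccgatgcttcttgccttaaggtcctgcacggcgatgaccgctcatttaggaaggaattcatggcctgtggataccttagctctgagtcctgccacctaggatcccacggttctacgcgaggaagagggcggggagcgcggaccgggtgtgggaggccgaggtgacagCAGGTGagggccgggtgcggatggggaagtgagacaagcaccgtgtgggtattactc
A motif match is a description of these letters and not a binding site.

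VIM encodes vimentin, the intermediate filament of mesenchymal cells, and lies at chr10:17270240-17279592 (GRCh37, plus strand). VIM was listed at 7496 FPKM in HeyC2 control cells and 2927 with TET1, and at 1223 and 835 FPKM in SKOV3 without and with TET1. It was the most abundant gene of all in HeyC2 control cells and rank 10 with TET1, and it held ranks 31 and 51 in SKOV3. In both lines the TET1 library was the lower one. The relative log2 change was -1.41 in HeyC2, 2.67-fold lower with a counting interval of -1.43 to -1.40, but the deposited values without centring have the opposite sign, 9467 FPKM against 7496 and a log2 difference of 0.34, because the HeyC2 TET1 column carries the GAPDH factor. In SKOV3 it was -0.74, 1.67-fold lower with an interval of -0.78 to -0.71. Without centring the SKOV3 change was -0.55 before the scaling and -0.12 as deposited, both within 1.5-fold. VIM-AS1, an antisense gene that overlaps VIM, was listed at 2175, 794, 350 and 228 FPKM in the same order, and without strand information reads of the pair cannot be told apart. In bulk RNA a lower level in all cells and a smaller share of cells with a high level cannot be told apart, which holds for every gene below.

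FN1 encodes fibronectin, the matrix glycoprotein that integrins bind, and lies at chr2:216225163-216300796 (GRCh37, minus strand). FN1 was listed at 5557 FPKM in the HeyC2 control and 2619 in HeyC2 TET1, at ranks 3 and 14. In SKOV3 it was at 32.56 FPKM in control and 45.40 in TET1, at ranks 2840 and 2007. The gene was thus among the most abundant of HeyC2 and an ordinary one of SKOV3. Its relative log2 change was -1.14 in HeyC2, 2.21-fold lower with a counting interval of -1.15 to -1.13, and here too the deposited values without centring point the other way, at 0.61. In SKOV3 the relative log2 change was 0.28, with an interval of 0.20 to 0.37, within 1.5-fold. The change in HeyC2 minus that in SKOV3 was -1.42 on the log2 scale for FN1 and -0.67 for VIM, with no test of either difference.

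VIM and FN1 together made up 2.71% of the summed FPKM of control and 1.10% of TET1 cells in HeyC2, and 0.266% and 0.193% in SKOV3. They were also set beside all genes with a mean of at least 1000 FPKM. Of 71 such genes in HeyC2, 5 were called lower and 5 higher, with a median relative log2 change of 0.13. GAPDH was the lowest of them at -1.75, and only 2 genes lay below VIM and 3 below FN1. Of 41 such genes in SKOV3, 12 were called lower and 2 higher, with a median of -0.45, and 9 lay below VIM, TUBA1B being the lowest at -1.37. VIM and FN1 were thus near the bottom of the abundant genes in HeyC2, whereas 9 abundant genes lay below VIM in SKOV3.

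**Figure D1:**
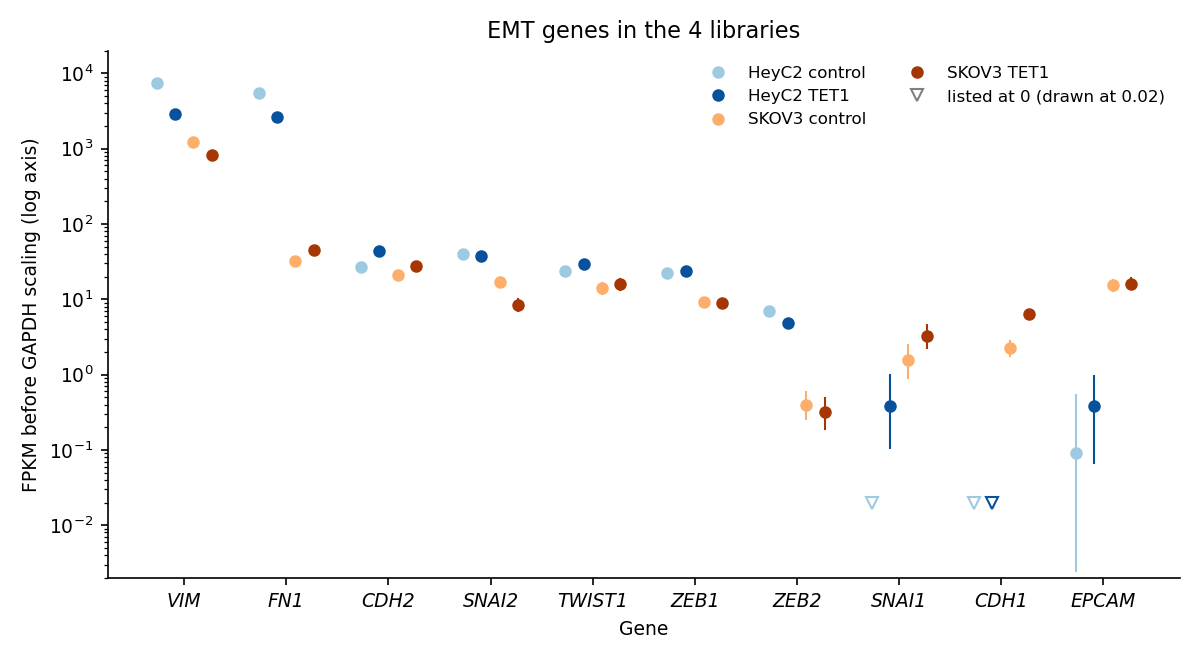
Level of each of the 10 genes in the 4 libraries, as FPKM before the GAPDH scaling on a log axis, with 1 point per library and lines for 95% counting intervals on estimated fragments (many shorter than the point). VIM and FN1 reach 7496 and 5557 FPKM in the HeyC2 control, the HeyC2 points of CDH1 are listed at 0, and EPCAM is at 0.09 and 0.38 FPKM in HeyC2 against 15.39 and 16.10 in SKOV3.

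The 5 transcription factors differed in level by line and by family member. SNAI2, which encodes SLUG (chr8:49830157-49834299, GRCh37, minus strand), was listed at 39.85 FPKM in HeyC2 control cells and 37.32 with TET1, and at 17.01 and 8.44 FPKM in SKOV3. It was the highest of the factors in 3 libraries, all but SKOV3 TET1, where TWIST1 was higher and the interval of ZEB1 overlapped its own. In SKOV3 control cells its counting interval, 14.95 to 19.28 FPKM, overlapped that of TWIST1, 11.90 to 16.55. The HeyC2 libraries lay close together, at a relative log2 change of -0.15 and an interval of -0.33 to 0.02, while SKOV3 TET1 was below its control at -1.12, 2.18-fold lower. Without the added 1 FPKM the SKOV3 change was -1.20, with an interval of -1.54 to -0.88. SNAI2 was thus called in SKOV3 and not in HeyC2, and the difference between the lines was not tested.

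SNAI1, which encodes SNAIL (chr20:48599517-48605423, plus strand), was the lowest of the factors in HeyC2. It was listed at 0 in the HeyC2 control, where 3 fragments would be 0.260 FPKM, and at 0.38 FPKM in HeyC2 TET1, about 4 fragments. In SKOV3 it was at 1.56 FPKM in control and 3.23 in TET1, about 17 and 33 fragments. The relative log2 change in SKOV3 was 0.53, within 1.5-fold, and 0.86 without the added 1 FPKM, with an interval of -0.03 to 1.79 that includes 0. With so few fragments the call depends on the scale: it passed 1.5-fold at a pseudocount of 0.1, at 0.79, and without centring, at 0.72. SNAIL is also regulated as a protein by phosphorylation and degradation, which RNA does not show. SNAI2 exceeded SNAI1 in the same library by 10.9-fold in SKOV3 control cells and 2.61-fold with TET1, a ratio that no scaling between libraries can change.

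ZEB1 (chr10:31607424-31818742, plus strand) was listed at 22.67 FPKM in HeyC2 control cells and 23.91 with TET1, and at 9.14 and 9.02 FPKM in SKOV3. Its relative log2 change was 0.02 in HeyC2, with a counting interval of -0.11 to 0.15, and -0.21 in SKOV3, with an interval of -0.43 to 0.00. Each of these values kept its sign under 7 of 8 other choices of pseudocount, filter and scaling. ZEB2 (chr2:145121931-145278624, minus strand), its paralogue, was listed at 6.95 FPKM in the HeyC2 control and 4.87 in HeyC2 TET1, and at 0.39 and 0.32 in SKOV3, below the filter of 1 FPKM there. Its relative log2 change in HeyC2 was -0.50, and -0.57 without the added 1 FPKM, with an interval of -0.79 to -0.36 that reaches past 1.5-fold. ZEB1 exceeded ZEB2 by 3.26-fold and 4.91-fold without and with TET1 in HeyC2, and by 23.4-fold and 28.2-fold in SKOV3. TWIST1 (chr7:19060614-19157259, minus strand) was listed at 24.07 FPKM in HeyC2 control cells and 29.67 with TET1, and at 14.04 and 15.86 FPKM in SKOV3. Its relative log2 change was 0.23 in HeyC2 and -0.03 in SKOV3, both with counting intervals that include 0, and the SKOV3 value kept its sign under 3 of 8 alternatives.

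The epithelial genes were at or near 0 in HeyC2. CDH1, the gene of E-cadherin (chr16:68771195-68869440, GRCh37, plus strand), was listed at 0 in both HeyC2 libraries, where 3 fragments would be 0.0855 FPKM in control and 0.0967 in TET1. In SKOV3 it was at 2.24 FPKM in control and 6.30 in TET1, an estimated 75 and 193 fragments. SKOV3 TET1 was thus the library with the most CDH1. The relative log2 change in SKOV3 was 0.98, 1.97-fold higher, and 1.30 without the added 1 FPKM, 2.46-fold with a counting interval of 0.91 to 1.70. EPCAM, the epithelial cell adhesion molecule (chr2:47572297-47614740, plus strand), was listed at 0.09 FPKM in the HeyC2 control and 0.38 in HeyC2 TET1, about 1 and 3 fragments. In SKOV3 it was at 15.39 FPKM in control and 16.10 in TET1, and its relative log2 change of -0.13, which kept its sign under 4 of 8 alternatives, had an interval of -0.47 to 0.21. Of the epithelial pair, CDH1 was called in SKOV3 and EPCAM was not.

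CDH2, the gene of N-cadherin (chr18:25512843-25757910, minus strand), varied least between the lines. It was listed at 26.87 FPKM in HeyC2 control cells and 43.24 with TET1, and at 21.08 and 27.96 FPKM in SKOV3. The TET1 library was the higher one in both lines. In HeyC2 the relative log2 change was 0.61, 1.52-fold higher and just past the limit, with an interval of 0.50 to 0.76 on the scale without the added 1 FPKM. In SKOV3 it was 0.20, with an interval of 0.06 to 0.38, within 1.5-fold. N-cadherin exceeded E-cadherin within the SKOV3 control library by 9.41-fold and within SKOV3 TET1 by 4.44-fold, and in HeyC2 no ratio was formed because CDH1 was listed at 0.

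Counted over the genes, 7 of the 10 passed the filter in HeyC2, and of these 1 was higher (CDH2), 2 were lower (VIM and FN1) and 4 were within 1.5-fold. Over all genes, 12.5% were called higher and 9.19% lower in HeyC2. In SKOV3, 9 of the 10 passed, 1 was higher (CDH1), 2 were lower (VIM and SNAI2) and 6 were within 1.5-fold, beside 20.7% of all genes called higher and 18.2% lower. The median relative log2 change of the genes that passed was -0.15 in HeyC2 and -0.03 in SKOV3. The median size of the change, whatever its sign, was 0.50 in HeyC2 beside 0.29 for all genes, and 0.28 in SKOV3 beside 0.46. VIM alone was called in the same direction in both lines. With the lines taken as a pair, all 4 libraries were fitted with cell line as a block, a step added after the data were examined. VIM had a mean change over the 2 lines of -1.06 ± 0.35, the SE of limma, which is shrunk toward the spread of all genes. Its limma adjusted p was 0.721 over 13088 genes, that of the other 9 genes was 0.787 to 0.974, and 0 genes of the whole table passed an adjusted p of 0.05. At an unadjusted p under 0.05, limma gave 534 higher and 299 lower of 13088 genes. VIM was the single EMT gene among them, but this limit makes no allowance for the number of genes. Over genes at 1 FPKM or more in both libraries of a line, the calls were 1 higher and 2 lower of 7 EMT genes in HeyC2, beside 11% and 8.57% of all such genes, and 1 higher and 2 lower of 9 in SKOV3, beside 16.6% and 18.5%. Being lower in both lines was the case for 283 of 11136 genes that passed in both, 2.54%. Of the 6 EMT genes that passed in both lines, 3 had the same sign of change and 3 the opposite sign, and 0 were called in opposite directions.

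**Figure D2:**
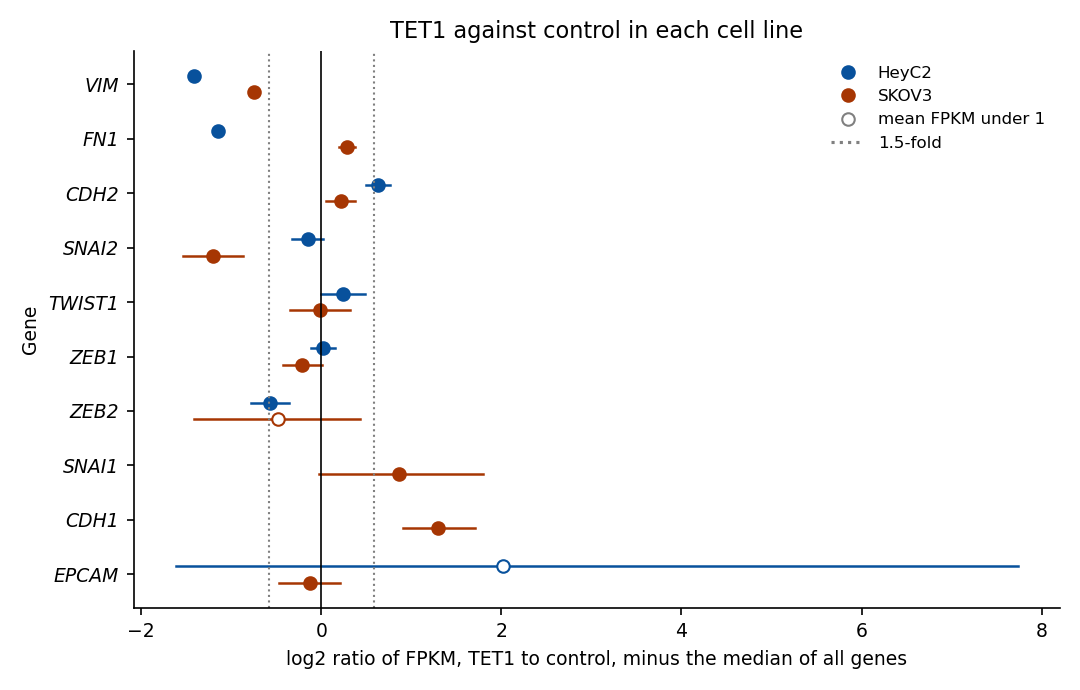
Log2 ratio of FPKM in TET1 to control, before the GAPDH scaling, without a pseudocount and minus the median of all genes, for HeyC2 (blue) and SKOV3 (brown), with lines for 95% counting intervals, open points for genes under 1 FPKM and dotted lines at 1.5-fold. CDH1 and SNAI1 have no HeyC2 point because they are listed at 0 there. VIM lies left of the limit in both lines, FN1 in HeyC2 alone at -1.14 and SNAI2 in SKOV3 alone at -1.20; on the deposited values without centring VIM and FN1 of HeyC2 lie right of 0.

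In the control libraries, log2 differences are HeyC2 minus SKOV3 relative to the all-gene median of -0.27 over 12488 genes. Of the 10 genes, 9 passed the filter, and 7 were higher and 2 lower in HeyC2, with 0 within 1.5-fold, beside 29% of all genes higher and 28.6% lower. FN1 was higher in HeyC2 by 7.64 on the log2 scale, 199-fold, VIM by 2.88, ZEB2 by 2.78, ZEB1 by 1.49, SNAI2 by 1.45 and CDH2 by 0.60, while TWIST1 was 2.01-fold higher. CDH2 stood just past 1.5-fold, and it was within 1.5-fold without centring, at 0.34. The genes lower in HeyC2 were EPCAM, at -3.64, and CDH1, which was listed at 0 in HeyC2, so no fold is given. SNAI1, listed at 0 in the HeyC2 control and at 1.56 FPKM in SKOV3, did not pass. The added 1 FPKM sets the values of ZEB2 and EPCAM, which were under 1 FPKM in 1 line: without it ZEB2 was 21.4-fold higher in HeyC2, with an interval of 3.85 to 5.05 on the log2 scale, and EPCAM was at -7.15, with an interval of -12.46 to -4.65 that rests on about 1 fragment. ZEB2, EPCAM and CDH1 were under 1 FPKM in 1 line and passed through the line where they were high, which favours a large difference. Of the 6 genes at 1 FPKM or more in both controls, VIM, FN1, CDH2, SNAI2, ZEB1 and TWIST1, all 6 were higher in HeyC2, beside 27.7% higher and 24.2% lower among the 10706 genes that met the same condition.

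The same comparison was made between the TET1 libraries, after the data were examined. Of the 6 genes at 1 FPKM or more in both, the same as in the controls, 6 were higher in HeyC2, beside 27.5% higher and 21.3% lower among 11240 genes. The other 4, CDH1, SNAI1, ZEB2 and EPCAM, passed through the line where they were high, which favours a large difference. With them the count is 7 higher and 3 lower, beside 27.2% and 28.5% of all genes. FN1 was higher by 6.20 on the log2 scale, ZEB2 by 2.53, SNAI2 by 2.40, VIM by 2.18, ZEB1 by 1.69, TWIST1 by 1.24 and CDH2 by 0.99, and EPCAM was at -3.26. SNAI1 was at -1.24 and CDH1 again listed at 0 in HeyC2. The gap between the lines was narrower in the TET1 libraries than in the controls for FN1, VIM and ZEB2, and wider for SNAI2, CDH2, ZEB1 and TWIST1. For ZEB1 and TWIST1 this depends on the scale. As TPM without centring, the control and TET1 gaps were 1.24 and 1.21 for ZEB1, and 0.73 and 0.74 for TWIST1. The ZEB2 gaps rest on about 26 and 19 fragments in SKOV3 control and TET1. Without the added 1 FPKM they were 4.42 in the controls and 4.30 in the TET1 libraries. Their intervals, 3.85 to 5.05 and 3.64 to 5.06, overlap. Of the 6 EMT genes that passed in both lines, 5, all but CDH2, had a line difference in the controls that was larger in size than either TET1 change, as had 55.9% of 11016 genes.

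**Figure D3:**
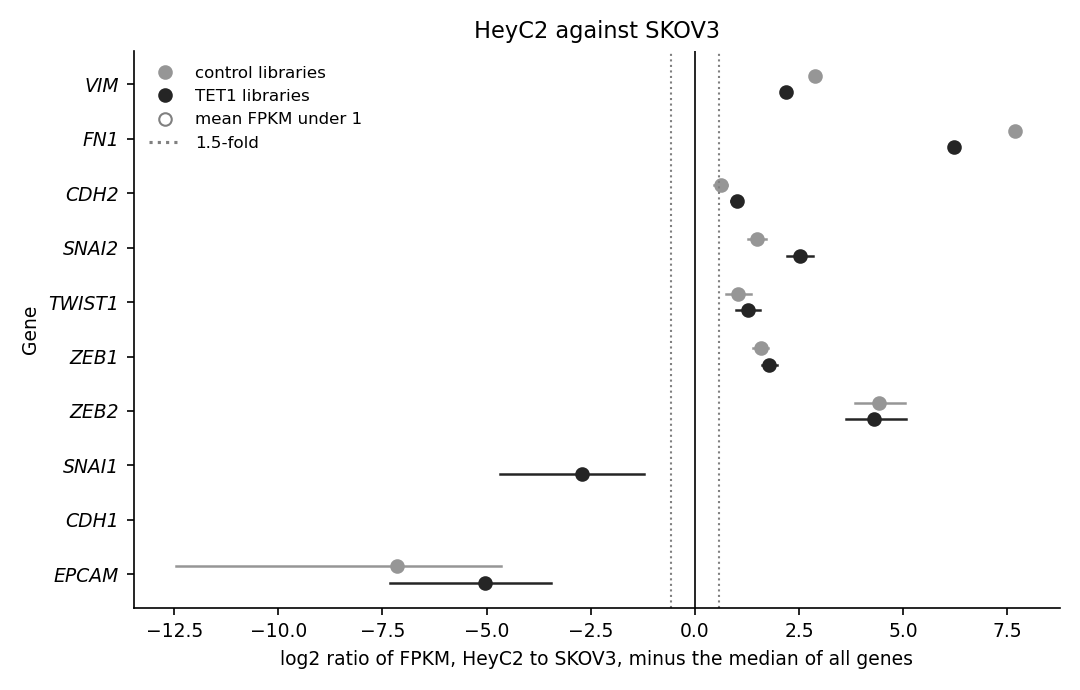
Log2 ratio of FPKM in HeyC2 to SKOV3, without a pseudocount and minus the median of all genes, in the control libraries (grey) and the TET1 libraries before the GAPDH scaling (black), with lines for 95% counting intervals and dotted lines at 1.5-fold. FN1, VIM and the factors other than SNAI1 lie to the right, EPCAM to the left. CDH1 has no point, and SNAI1 none in the controls, because HeyC2 is listed at 0.

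Ratios between members of 1 library do not depend on any scaling of the library. VIM exceeded FN1 by 1.35-fold in HeyC2 control cells and by 1.12-fold with TET1. In SKOV3 the ratio of VIM to FN1 was 37.6 in control and 18.4 in TET1, so vimentin RNA was lower relative to fibronectin RNA in the TET1 library. The ratio of VIM to ZEB1 was 331 and 122 in HeyC2, and 134 and 92.6 in SKOV3. In both lines, then, VIM was lower relative to ZEB1 in the TET1 library than in the control.

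Genes that work with the 10 were described in 8 lists of 159 further genes, all of which were found in the tables. Their counts stand beside 12.5% of all genes called higher and 9.19% lower in HeyC2, 20.7% and 18.2% in SKOV3, and 29% and 28.6% between the controls. The list medians depend on the filter and on the centring, and both change when the filter is left out. The all-gene median is then 0, so the values are the uncentred ones, as for VIM in HeyC2 at -1.36. The list medians then lay between 0 and 0.10 in HeyC2, between -0.25 and 0.49 in SKOV3 and between -0.79 and 1.14 between the controls. The epithelial programme list holds epithelial splicing factors, grainyhead and OVOL factors and membrane proteases with their inhibitors. In HeyC2, 6 of 25 passed, with 4 higher and 1 lower and a median relative log2 change of 1.04 (0 without the filter). SPINT2, a membrane-bound inhibitor of the HGF activator, was at 2.89 FPKM in control and 34.96 in TET1, the largest rise of the list, and AP1M2, an adaptor subunit for sorting to the basolateral membrane, was the single gene called lower, at -0.70. In SKOV3, 15 passed, with 2 higher and 9 lower and a median of -0.70 (-0.05 without the filter). Of 14 at 1 FPKM or more in both SKOV3 libraries, 2 were higher and 8 lower. ELF3, an epithelial ETS factor, rose from 22.45 to 55.55 FPKM, while ESRP2, an epithelial splicing regulator, fell from 4.03 to 0.74. CDH1 was thus called higher in a library in which 9 of these 15 epithelial genes were called lower. Between the controls, 12 of 15 were lower in HeyC2 and 1 was higher, with a median of -2.55 (-0.57 without the filter). However, 9 of the 15 were under 1 FPKM in 1 line, and passing through the other line favours a large difference. Of the other 6, 3 were lower and 1 higher. SPINT2 was at 397 FPKM in the SKOV3 control.

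The mesenchymal programme list, of matrix and contractile genes, held calls in both directions. In HeyC2, 21 of 26 passed, with 6 higher, 4 lower and a median of 0.04. Of 20 at 1 FPKM or more in both HeyC2 libraries, 5 were higher and 4 lower. TNC, the matrix protein tenascin C, fell from 143.69 to 50.62 FPKM, and MYL9, a myosin light chain of contractile cells, rose from 1.31 to 15.87. In SKOV3, 18 passed, with 5 higher, 9 lower and a median of -0.48 (-0.06 without the filter). Of 17 at 1 FPKM or more in both SKOV3 libraries, 4 were higher and 9 lower. SPARC, a collagen-binding matrix protein, rose from 9.27 to 144.43 FPKM, and TAGLN, an actin-binding protein of smooth muscle, fell from 62.66 to 11.24. SPOCK1, a matrix proteoglycan, was the single gene of the 8 lists that was at least 2-fold from the median in the same direction in both lines, at 7.91 and 35.60 FPKM in HeyC2 and 0.91 and 3.90 in SKOV3. Between the controls, of 16 genes at 1 FPKM or more in both, 13 were higher in HeyC2 and 2 lower. TAGLN, at 0.58 FPKM in the HeyC2 control and so not among the 16, was also lower in HeyC2.

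Among 18 other EMT transcription factors, 13 passed in HeyC2, with 2 higher and 3 lower, and 14 passed in SKOV3, with 3 higher and 1 lower. In SKOV3, 3 of the 14 were under 1 FPKM in 1 library, and of the rest 2 were higher and 1 lower. SOX4 was the largest rise in both lines, from 15.83 to 28.90 FPKM in HeyC2 and from 20.26 to 152.97 in SKOV3. SOX9 fell in HeyC2 from 20.15 to 1.88 FPKM, a relative log2 change of -2.93, and was at 0.55 in SKOV3, from 1.46 to 3.11 FPKM. FOXQ1, a forkhead factor, was called lower in SKOV3 at -0.66 and also in HeyC2 at -1.62. Between the controls, of 11 at 1 FPKM or more in both, 6 were higher in HeyC2 and 2 lower, with TBX3, not among the 11, at 19.70 FPKM in HeyC2 and listed at 0 in SKOV3 control cells, and TCF3 lower at -1.12.

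Of the SNAIL and ZEB corepressors and turnover factors, 19 passed in HeyC2, with 2 (10.5%) higher and 1 (5.26%) lower, near the shares of all genes. In SKOV3, 20 passed, with 2 higher and 2 lower. SUV39H1, a histone H3 lysine methyltransferase recruited by SNAIL, was the largest fall in both lines, from 3.06 to 1.26 FPKM in HeyC2 and from 18.73 to 7.25 in SKOV3. PAK1, a kinase that phosphorylates SNAIL, was called higher in HeyC2 at 0.69, and USP27X, a deubiquitinase of SNAIL, in SKOV3 at 0.80. Between the controls, 10 of 19 were lower in HeyC2 and 0 higher.

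Of 27 other cadherins, 4 passed in HeyC2, with 3 higher and 1 lower, and 10 passed in SKOV3, with 5 higher and 3 lower. In SKOV3, 3 of the 10 were under 1 FPKM in 1 library, which favours a large change. Of the 7 at 1 FPKM or more in both SKOV3 libraries, 2 were higher and 3 lower. CDH5, the cadherin of endothelium, rose from 18.85 to 94.63 FPKM in HeyC2 and was at most 0.19 in SKOV3, although the 6 endothelial markers were below 1 FPKM in every library. CDH19 was at 0.12 FPKM in SKOV3 control cells and 20.10 with TET1, and was listed at 0 in HeyC2. CDH18 was the largest fall in SKOV3, at -0.92. FAT1, a giant protocadherin, was called lower in both lines, at -0.80 and -0.86. CDH16, the kidney cadherin, was at 49.68 FPKM in the SKOV3 control and 0.11 in the HeyC2 control. Each line thus carried cadherins besides CDH1 and CDH2 that the other nearly lacked.

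Of the catenins and cadherin processing genes, 1 of 16 was higher and 0 lower in HeyC2, and 2 of 17 were higher and 3 lower in SKOV3, beside the shares of all genes given above. CTNNAL1, a relative of alpha-catenin, was the one higher in HeyC2, at 0.99. ARVCF, a relative of p120 catenin, was the largest rise in SKOV3, at 0.95, and VCL, vinculin, the largest fall, at -0.95. CTNNB1, beta-catenin, was higher in the HeyC2 control than in the SKOV3 control by 1.34, whereas JUP, plakoglobin, was at 0.04 and 41.41 FPKM. Of the vimentin partner filaments, 1 of 8 was higher and 2 lower in HeyC2 and 1 of 8 higher and 3 lower in SKOV3. AURKB, a kinase that phosphorylates vimentin in mitosis, was the largest fall in HeyC2, at -1.33, and FLNA, an actin crosslinker that binds vimentin, the largest in SKOV3, at -1.25. DES, desmin, the 1 gene higher in HeyC2, was listed at 0 in the HeyC2 control and at 2.27 FPKM in HeyC2 TET1. It thus passed through the TET1 library alone. Of the 7 at 1 FPKM or more in both HeyC2 libraries, 0 were higher and 2 lower. PRKCE, a kinase of vimentin trafficking, was the largest rise in SKOV3, at 0.89, and SYNM, synemin, was the furthest below SKOV3 in the HeyC2 control, at -2.34.

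Of the fibronectin assembly and receptor genes, 1 of 8 was higher and 2 lower in HeyC2, and 3 of 11 higher and 1 lower in SKOV3. PLAUR, the urokinase receptor, was the largest fall in HeyC2, from 109.60 to 53.04 FPKM, and TNS1, which couples integrins to actin, the largest rise, at 0.70. FBLN2, a fibronectin-binding matrix protein, rose in SKOV3 from 5.99 to 109.09 FPKM, and SDC4, a syndecan that acts with integrins on fibronectin, was called lower there at -0.60. Between the controls, of 7 at 1 FPKM or more in both, 4 were higher in HeyC2 and 0 lower. TGM2, a transglutaminase that crosslinks fibronectin, was at 941 FPKM in HeyC2 and 14.49 in SKOV3. FBLN1, not among the 7, was lower in HeyC2, at 0.17 and 27.26.

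**Figure D4:**
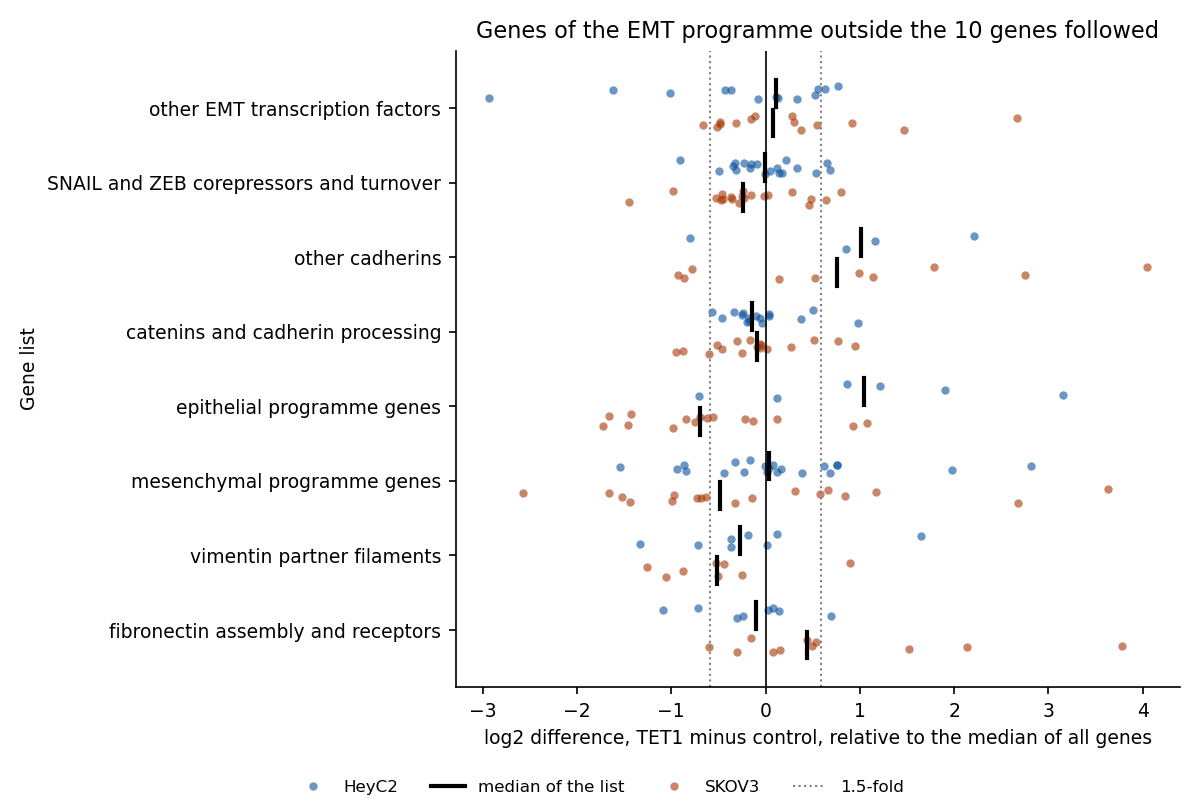
Relative log2 change, TET1 minus control, of each gene that passed the filter in the 8 lists outside the 10 EMT genes, for HeyC2 (blue, upper row of each list) and SKOV3 (brown, lower row), with black bars for list medians and dotted lines at 1.5-fold; vertical scatter within a row is for legibility only. The epithelial list has a median of 1.04 over 6 genes in HeyC2 and -0.70 over 15 genes in SKOV3. Without the filter, and so also without centring, these are 0 and -0.05.

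For 7 of the 10 genes the level ranged over at least 2 log2 units, and the genes with the nearest profile over the 4 libraries were found among 13088 genes. Likeness was the root mean square distance between centred log2 profiles, a description over 4 points that share their scaling. VIM was nearest to VIM-AS1, at 0.04, which overlaps it and whose reads cannot be told from those of VIM without strand information. COL5A2 and CMAS came next. FN1 was nearest to HCLS1, SRGN and WNT5B, at 0.29 to 0.32, so no gene followed its range closely. CDH1 was nearest to BEX2, HAVCR1 and FGFR2, which were likewise listed at 0 in HeyC2. EPCAM was nearest to HSPG2, CKB and NLRP2, ZEB2 to FST, PTGIR and SRPX2, SNAI2 to LOC646626, GBP1 and VEGFC, and SNAI1 to PSG4, FKBP1B and DBNDD1. CDH2, ZEB1 and TWIST1 ranged over less and were not compared.

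The scale decides the direction of several changes. On the deposited values without centring, 6 of the 7 EMT genes that passed in HeyC2 were called higher and 0 lower, and in SKOV3 4 were called higher and 0 lower. The HeyC2 values then ran from 0.34 for VIM to 2.34 for CDH2, and SNAI2 and ZEB2 also turned positive, at 1.58 and 1.08. Under 8 other choices of pseudocount, filter and scaling, VIM lay between -1.43 and -1.27 in HeyC2, and FN1 was lower in all 8, at -1.16 in the lowest. In SKOV3, SNAI2 lay between -1.22 and -0.92, CDH1 (7 choices, since it did not pass the filter of 5 FPKM) between 0.96 and 1.37, and VIM between -0.77 and -0.50.

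**Figure D5:**
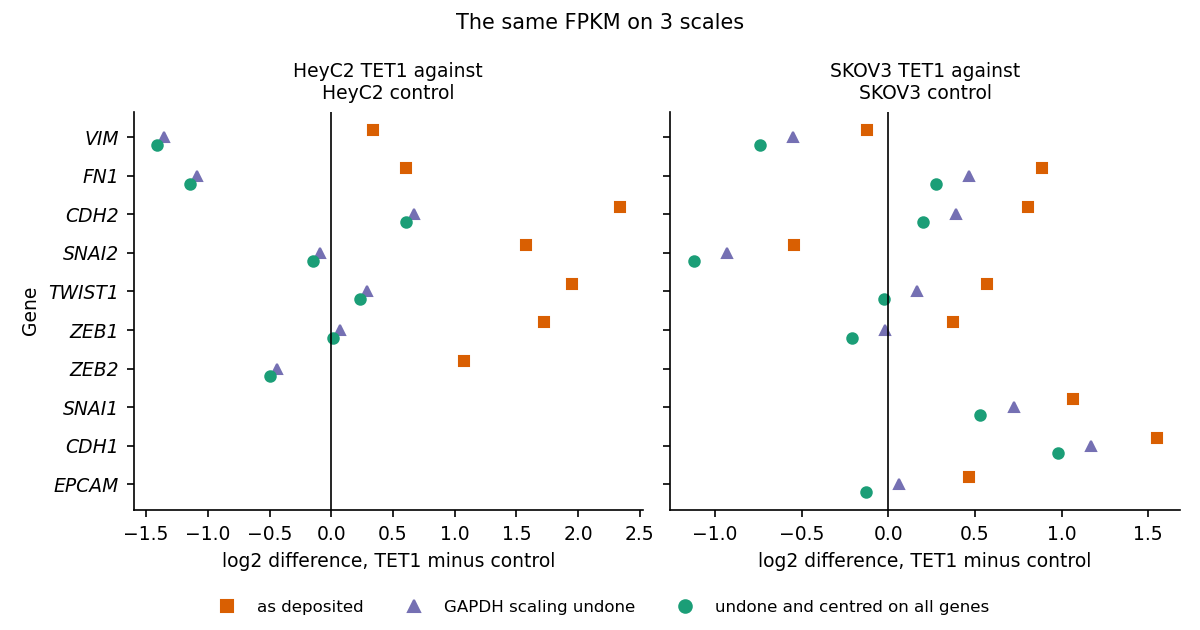
Log2 difference, TET1 minus control with 1 FPKM added, of the EMT genes that passed the filter, on the deposited values (orange squares), before the GAPDH scaling (purple triangles) and before it with centring on all genes (green circles), for HeyC2 (left) and SKOV3 (right). In HeyC2, VIM and FN1 lie at 0.34 and 0.61 as deposited and at -1.41 and -1.14 after both steps, and SNAI2 and ZEB2 at 1.58 and 1.08 as deposited and at -0.15 and -0.50 after them. In SKOV3, ZEB1, TWIST1 and EPCAM change side of 0 between scales.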

How the data were processed

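RNA sequencing of HeyC2 and SKOV3 cells, TET1 and control, gave 4 libraries with 1 library per group. Per the labels, the authors aligned paired-end TruSeq reads to hg19 (GRCh37). The submitters' processing notes name Bowtie2 2.2.6 and RSEM 1.2.17. The gene annotation and the read totals are not given in the sources used here. The values deposited are FPKM per gene symbol, and the authors multiplied each TET1 column so that GAPDH equalled its control. The factor was recovered from the value step of 0.01 FPKM, with 100% of values below 40 FPKM on the resulting grid, and divided out.

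Log2 differences used a pseudocount of 1 and genes averaging 1 FPKM or more, were centred on the all-gene median, and were called at 1.5-fold. Depth was estimated from the FPKM steps of 2444 genes with 1 transcript, with effective length taken as the transcript length minus 180 bases, and estimates moved between 6080000 and 8060000 fragments with that offset. Where a gene was listed at 0, the FPKM of 3 fragments is given. No test within a line was made. Over both lines, limma 3.58.1 (R) was fitted to centred log2 values of the 4 libraries with cell line as a block. The members and lists were chosen with earlier results of these data known. Named genes were all members, list genes 2-fold from the median in the same direction in both lines, the largest rise and fall past 1.5-fold of each list and comparison, and the 3 nearest profiles of each member with a range of at least 2 log2 units.

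Gene positions came from GENCODE v44 lifted to GRCh37, by symbol, and promoters from RefSeq (GRCh38.p14). Alternatives were pseudocounts of 0.1 and 0.01, no filter, a filter of 5 FPKM, deposited values with centring, no centring, upper-quartile scaling, TPM and a 2-fold limit. Deposited values without centring, the fit over both lines, counts over genes at 1 FPKM or more in both libraries, and the comparison of the TET1 libraries between lines, were added after seeing the data. Calculations were tested on simulated data and used Python 3.11.15, numpy 2.4.6, pandas 2.3.3, scipy 1.17.1 and matplotlib 3.10.9.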

Additional observations from a re-analysis of the deposited data

Results flagged for a closer look

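FN1 had values of opposite sign in the lines, with a relative log2 change of -1.14 in HeyC2 and 0.28 in SKOV3. The difference was not tested, since each group has 1 library, and the SKOV3 value is within 1.5-fold. On the deposited values without centring both changes are positive, at 0.61 and 0.89.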

How the results depend on the processing

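No paired analysis was possible within a line because each group has 1 library and the labels carry no replicate numbers. For the same reason no library was left out. Taking the lines as pairs leaves 1 residual degree of freedom, and that limma fit called 0 genes at an adjusted p of 0.05, the EMT genes having adjusted p of 0.721 to 0.974. At these depths, changes of SNAI1, of EPCAM in HeyC2 and of ZEB2 in SKOV3 rest on too few fragments for a direction. The cause of the shifts below was not tested, apart from the 2-fold limit and the stricter filter, which admit fewer genes by construction, and the deposited scale, which adds the GAPDH factor to each TET1 column. The settings without a filter and as TPM also leave the values uncentred, so their shifts mix these steps.

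Among the EMT genes in SKOV3, 2 were called higher with pseudocounts of 0.1 and 0.01, without a filter, before the scaling without centring, with upper-quartile scaling and as TPM, and 0 with the filter of 5 FPKM and the 2-fold limit. Lower calls there were 1 without a filter, before the scaling without centring, with upper-quartile scaling, as TPM and at 2-fold. In HeyC2, 0 were higher at 2-fold. Between the lines, with the filter of 5 FPKM, 1 was lower in HeyC2 in the controls and 1 in the TET1 libraries. As deposited without centring, 6 were higher and 0 lower in HeyC2 and 4 higher and 0 lower in SKOV3, and VIM, FN1, SNAI2 and ZEB2 in HeyC2 turned to 0.34, 0.61, 1.58 and 1.08. Over genes at 1 FPKM or more in both libraries, 0 EMT genes were lower in HeyC2 than in SKOV3, in the controls or the TET1 libraries, and 2393 of all genes were lower in the latter.

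Over all genes without a filter, 4434 were higher in SKOV3 TET1, and 5449 and 6427 were lower in HeyC2 than in SKOV3 in the control and TET1 libraries. With the filter of 5 FPKM 673, and with deposited values centred 1676, were lower in HeyC2 TET1. Without centring before the scaling, 1499 were lower in SKOV3 TET1 and 2355 higher in HeyC2 TET1 than in SKOV3 TET1, and with upper-quartile scaling 1564 were lower in SKOV3 TET1. As TPM, 4900 were higher in SKOV3 TET1, 5466 lower between the controls, and 2302 higher and 7108 lower between the TET1 libraries. At 2-fold, 489 were higher and 337 lower in HeyC2, 1319 and 845 in SKOV3, 2323 and 2219 between the controls, and 2253 and 2434 between the TET1 libraries. As deposited without centring, 12441 were higher and 65 lower in HeyC2, 6702 and 586 in SKOV3, and 8218 and 2291 between the TET1 libraries. The median of the fibronectin list between the controls, 1.55 over 10 genes, turned to -0.11 without a filter and -0.14 as TPM. Neither of these settings is centred, and with the filter kept but no centring the median was 1.28.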
